A study of Mus musculus with 4 samples.

Results

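Interferon-inducible GTPases were examined in sorted liver and lung lymphocytes through 10 genes of the guanylate-binding protein and immunity-related GTPase families, *Gbp2*, *Gbp3*, *Gbp4*, *Gbp6*, *Gbp7*, *Igtp*, *Irgm1*, *Irgm2*, *Iigp1* and *Ifi47*. Of these 10 genes, 8 were found among the 2629 genes of a table of ILC2 subcluster markers and 6 among the 1679 genes of a table of cell type markers; 5 were in both tables, and *Irgm2* was in neither. Group 2 innate lymphoid cells (ILC2s), lymphocytes that lack antigen receptors and secrete type 2 cytokines, were sorted as Lin-CD127+Thy1+ST2+ cells from wild type BALB/c mice 8 weeks old, in 4 libraries of 1 per group. The groups were liver and lung of mice given 0.5 µg of rIL-33 intraperitoneally on each of 5 days, and liver and lung of mice given PBS in the same way. Tissue of 2 to 6 mice was pooled for each group. The gate removed cells with CD3e, TCRb and myeloid or B cell surface proteins, while types named as T cells, macrophages and plasma cells were still among the sorted cells. The authors made both tables from the 4 libraries together, so rIL-33 was not compared with PBS here, nor liver with lung, and no value has a replicate.

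Guanylate-binding proteins (Gbp) and immunity-related GTPases (Irg) are among the genes that interferon gamma raises most in mouse cells, and type I interferon raises many of them too. Gbp proteins and the effector Irg proteins collect on the membranes around intracellular bacteria and parasites and help to break them. The regulatory Irg proteins, Irgm1, Irgm2 and Igtp (also called Irgm3), sit on the cell's own membranes and keep effector Irg proteins such as Iigp1 (Irga6) and Ifi47 (Irgd) inactive there. Promoters of genes that answer interferon gamma often hold GAS elements, and those of genes that answer type I interferon hold interferon-stimulated response elements (ISRE). IRF1, a factor that interferon gamma induces, binds elements of the ISRE kind.

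In GENCODE M21 (GRCm38, the assembly called mm10 by the authors) all 10 genes are protein-coding. *Gbp7* (chromosome 3, 142530342 to 142550149), *Gbp3* (142560026 to 142573209) and *Gbp2* (142620602 to 142638008) follow each other on the plus strand. *Gbp4* (chromosome 5, 105115767 to 105139586) and *Gbp6* (105270702 to 105293698) lie on the minus strand. On chromosome 11 are *Irgm1* (48861968 to 48871683, minus strand), *Ifi47* (49076587 to 49096974, plus strand), *Igtp* (58199556 to 58207591, plus strand) and *Irgm2* (58199618 to 58222782, plus strand). The annotated spans of *Igtp* and *Irgm2* overlap.

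Sequence before the start site is shown because most of these genes were listed together for 1 ILC2 subcluster, number 8, and share a motif there. RefSeq promoter windows of GRCm38.p6, 300 bases with 250 of them before the start, matched 7 of the 10 genes by symbol. Each line gives the 100 bases at positions -110 to -11 from the start annotated in RefSeq, 5′ to 3′ on the gene's strand. Matches to the ISRE-like letters GAAANNGAAA on either strand are in capitals. RefSeq starts can differ from the GENCODE starts above, and the stretches of *Irgm2* and *Irgm1* lie inside their GENCODE spans. For *Gbp3*, which has another annotated start, the upstream window is shown.
Gbp2: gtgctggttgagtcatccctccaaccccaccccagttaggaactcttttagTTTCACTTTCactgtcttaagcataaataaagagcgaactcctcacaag
Gbp3: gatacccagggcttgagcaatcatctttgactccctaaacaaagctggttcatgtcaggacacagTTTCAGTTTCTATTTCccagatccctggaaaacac
Gbp7: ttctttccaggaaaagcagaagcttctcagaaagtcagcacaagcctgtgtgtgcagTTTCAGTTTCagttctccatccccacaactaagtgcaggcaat
Igtp: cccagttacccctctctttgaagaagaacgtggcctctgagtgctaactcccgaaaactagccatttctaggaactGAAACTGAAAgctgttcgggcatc
Irgm2: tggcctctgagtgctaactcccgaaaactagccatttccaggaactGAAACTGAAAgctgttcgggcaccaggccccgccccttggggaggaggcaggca
Irgm1: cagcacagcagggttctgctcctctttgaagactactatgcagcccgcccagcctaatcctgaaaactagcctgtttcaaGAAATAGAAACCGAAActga
Ifi47: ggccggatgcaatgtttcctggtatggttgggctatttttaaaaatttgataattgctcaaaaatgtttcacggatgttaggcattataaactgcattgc

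The stretches are chr3:142620553-142620652 for *Gbp2*, chr3:142559934-142560033 for *Gbp3*, chr3:142530226-142530325 for *Gbp7*, chr11:58199446-58199545 for *Igtp*, chr11:58214867-58214966 for *Irgm2*, chr11:49076477-49076576 for *Ifi47*, all on the plus strand, and chr11:48871431-48871530 on the minus strand for *Irgm1*. The ISRE-like letters were present in 6 of the 7 genes, against 3.99% of the 27025 genes of the promoter table and 11.4% of the 202 other genes of subcluster 8 that had a window. Of the 7 genes, *Irgm2* was listed for no ILC2 subcluster, while *Gbp4* and *Gbp6* were listed for subcluster 8 but had no window. *Gbp3* and *Irgm1* each held overlapping matches. The second window of *Gbp3* held none, and the window of *Ifi47* held none. GAS-like letters, TTCNNNGAA, were in 3 of the 7 genes, *Gbp7*, *Igtp* and *Irgm2*, against 9.55% of all genes of the promoter table and 12.9% of the 202 other genes of subcluster 8. In *Igtp* the GAS-like match ran from -45 to -37 and the ISRE-like match from -34 to -25, and in *Irgm2* from -75 to -67 and from -64 to -55. Aligned to each other, the windows of *Igtp* and *Irgm2* were identical at 247 of 264 positions, 93.6%. A match describes letters and is not a measured binding site.

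**Figure D1:**
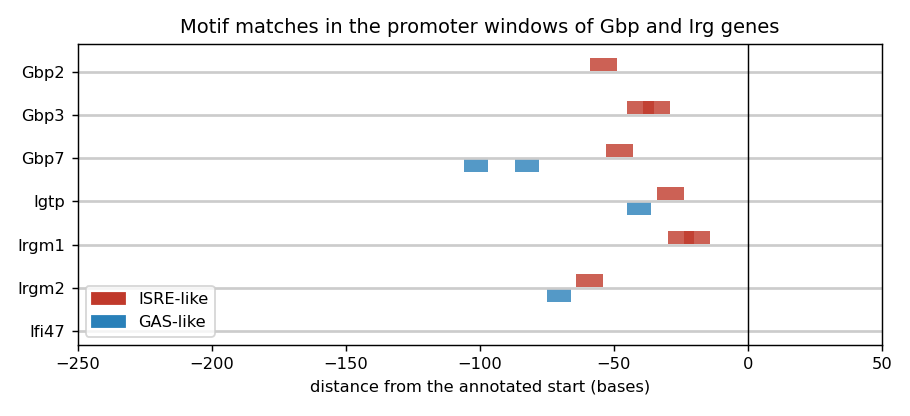
Matches to the ISRE-like letters (red) and the GAS-like letters (blue) in the promoter windows of 7 genes, by distance in bases from the annotated start (vertical line); *Gbp3* is shown for its upstream start. All ISRE-like matches lie between positions -64 and -15, and *Ifi47* has no match of either kind.

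In the ILC2 subcluster table, 10 subclusters, numbered 0 to 9, were each set against the remaining ILC2s. A gene given as a marker of a subcluster is called listed for it. Each listing carries, for that gene, the percentage of cells in which its value was above 0, once within the subcluster and once over the remaining ILC2s, and a gene is called found in those cells. The subclusters were made from these cells and these genes, so the shares are a description and no test was made. Subcluster 8 listed 8 of the 10 genes, while 9.62% of the genes of the table were listed for it. Subclusters 4 and 5 listed 2 each, where 30.5% and 38.0% of the genes of the table were listed, and the other 7 subclusters listed none. Subcluster 8 was small, with a solved size of 0.668% ± 0.0164 (SE of the least-squares fit) of the ILC2s, so its shares rest on few cells.

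Among guanylate-binding proteins, *Gbp6* had the largest ratio of both shares, while *Gbp4* and *Gbp2* had larger differences. Within subcluster 8, 38.2% of cells had it, and 3.30% of all other ILC2s did, a ratio of 11.6 (11.4 to 11.8 from rounding of the shares alone). This was the largest ratio among the 253 genes listed for subcluster 8. Of the 89-base stretches in the last 500 bases of its annotated transcripts, 65.8% were also in transcripts of *Gbp10* or *Gm43302*, so reads of *Gbp6* cannot be fully told apart from those of its copies.

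*Gbp2*, a membrane-anchored member of the family, was found in 48.3% of subcluster 8 against 10.3% of the remaining ILC2s, a ratio of 4.69. *Gbp3* was found in 41.6% against 10.3%, a ratio of 4.04. *Gbp4* was found in 71.9% against 27.9%. The difference for *Gbp4*, 44.0 percentage points, was the second largest of the 253 genes, although its ratio of 2.58 was lower than those of *Gbp2* and *Gbp3*. *Gbp7*, which is known for a part in assembling the NADPH oxidase of phagocytes, was found in 76.4% against 49.6%, a ratio of 1.54, the lowest of the 8 genes. It was thus already common among ILC2s outside subcluster 8, where *Gbp6* was rare.

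Of the regulatory Irg genes, *Igtp* and *Irgm1* were listed, for subcluster 8 alone. They were in the table only through that listing, and every listing of subcluster 8 had the higher share inside. *Igtp*, whose protein sits on the endoplasmic reticulum and lipid droplets, was found in 57.3% of its cells against 13.7% elsewhere, a ratio of 4.18 and a difference of 43.6 percentage points, the third largest of the 253 genes. *Irgm1*, which is also known from control of autophagy and mitochondria, was found in 37.1% against 13.2%, a ratio of 2.81. The effector gene *Ifi47* was found in 59.6% against 30.9%, a ratio of 1.93. *Irgm2* and *Iigp1* were listed for no ILC2 subcluster. A gene without a listing may be lower, unchanged, too rare or not tested, so *Irgm2* was not shown to differ from its neighbour *Igtp*.

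Across the 8 genes the median ratio in subcluster 8 was 3.42 and the median difference 33.1 percentage points, against 1.48 and 18.9 percentage points over all 253 genes listed for it. Of the 10 genes with the largest ratio there, 5 were *Gbp6*, *Gbp2*, *Igtp*, *Gbp3* and *Irgm1*. The others were *Gbp2b* at 5.20, *Ly6a* at 5.09, *Isg15* at 3.6, *Gbp5* at 3.58 and *Irf7* at 2.79. In all 253 listings of this subcluster the share was higher inside than outside.

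**Figure D2:**
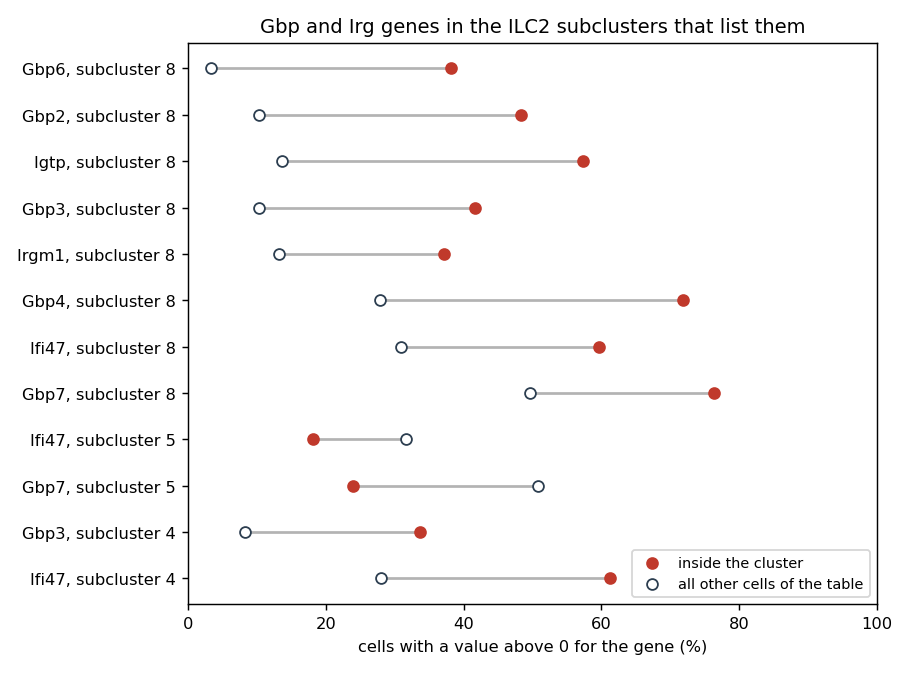
Percentage of cells with a value above 0 for each gene inside the ILC2 subcluster that lists it (filled red) and in all other ILC2s (open), 1 line for each of the 12 listings, ordered by subcluster and then by ratio. In subcluster 8 the filled points lie between 37.1% and 76.4% and the open points between 3.30% and 49.6%; in subcluster 5 the filled points lie to the left of the open ones.

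From both shares of a listing and the size of the subcluster, the share of all ILC2s with a value above 0 was solved for each gene. *Gbp7* was the most common, at 49.8% of ILC2s. *Ifi47* followed at 31.1% and *Gbp4* at 28.2%. *Igtp* at 14.0% and *Irgm1* at 13.4% were less common, and *Gbp2* at 10.6% and *Gbp3* at 10.5% differed by less than the rounding of the shares. *Gbp6* was the rarest, at 3.53%. Where a gene had more than 1 listing, its solved values differed by 0.0452 percentage points at most. Shares of different genes also depend on how well each transcript is captured, so this order is one of detection and not of RNA per cell.

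Subcluster 8 held only a small part of the cells with these transcripts. It contained 7.22% of the ILC2s with a value above 0 for *Gbp6*, 3.06% of those for *Gbp2*, 2.74% for *Igtp*, 2.64% for *Gbp3*, 1.86% for *Irgm1*, 1.70% for *Gbp4*, 1.28% for *Ifi47* and 1.03% for *Gbp7*. A part above the 0.668% of ILC2s in the subcluster follows from the higher share inside, so only the sizes of the parts are informative. For *Gbp6*, *Gbp2*, *Irgm1*, *Igtp* and *Gbp4*, listed for subcluster 8 alone, the table does not give how the share outside it divides among the other subclusters.

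**Figure D3:**
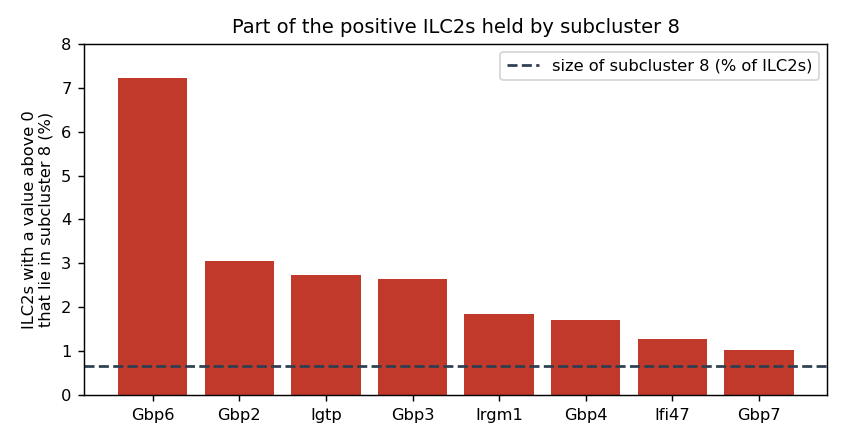
Bars give the percentage of ILC2s with a value above 0 for each gene that lie in subcluster 8, and the dashed line gives the size of that subcluster as a percentage of ILC2s. The bars run from 7.22% for *Gbp6* to 1.03% for *Gbp7*, with the line at 0.668%; a gene with a higher share inside always lies above it.

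*Gbp3* and *Ifi47* were also listed for subcluster 4, which held 9.23% ± 0.0113 of the ILC2s. *Gbp3* was found in 33.7% of its cells against 8.2% elsewhere, and *Ifi47* in 61.2% against 28.0%. The ratio was 4.11 for *Gbp3* and 2.19 for *Ifi47*, against a median of 1.95 over the 802 genes listed for this subcluster. The differences, 25.5 percentage points for *Gbp3* and 33.2 for *Ifi47*, lay below the median of 34.1 over the same genes. Because subcluster 4 is larger, it held 29.5% of the ILC2s with a value above 0 for *Gbp3* and 18.2% of those for *Ifi47*, more than subcluster 8 did. Pooled over the subclusters that did not list the gene, the share was 7.91% for *Gbp3* and 28.2% for *Ifi47*. Subcluster 4 also listed 6 of 8 proliferation markers, among them *Stmn1* (77.2% against 9.80%) and *Mki67* (54.7% against 15.0%). The other 6 genes listed for subcluster 8 were not listed for subcluster 4.

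*Gbp7* and *Ifi47* were listed for subcluster 5 although fewer of its cells had them. *Gbp7* was found in 23.9% of subcluster 5 against 50.8% of the remaining ILC2s, and *Ifi47* in 18.2% against 31.6%. The share was lower inside in 97.8% of the 1000 listings of this subcluster, and in 29.4% of the 3745 listings of the whole table. The ratio was 0.470 for *Gbp7* and 0.576 for *Ifi47*, and the median over these 1000 genes was 0.453, with *Gbp7* at rank 436 and *Ifi47* at rank 145 from the top. Of 10 T cell markers, 5 were in the table. Subcluster 5 listed 4 of these 5, where 38.0% of all genes of the table were listed. Of these 4, 3 had the higher share inside, *Cd3e* (32.0% against 4.70%), *Trdc* (25.6% against 7.0%) and *Cd3g* (39.5% against 32.6%), while *Trbc1* had the lower (45.0% against 81.0%). The part of T cells in the listings of *Gbp7* and *Ifi47* was not tested.

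The other genes of the pathway were followed through lists written from general knowledge. Of 19 other interferon-inducible GTPases, 3 were listed for subcluster 8, where 9.62% of the genes of the ILC2 subcluster table were listed. These 3 were *Gbp2b* (49.4% against 9.50%), *Gbp5* (25.8% against 7.20%) and *Gbp8* (33.7% against 13.4%). They had no other listing. A gene is in the table only through a listing, and the rest of the 19 were listed for no subcluster. Genes of interferon signalling and its transcription factors were also listed for subcluster 8. Among them, *Irf7* was at 33.7% against 12.1%, *Irf9* at 37.1% against 16.6%, *Irf1* at 44.9% against 29.3% and *Jak2* at 64.0% against 51.4%.

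Of 6 interferon and interferon receptor genes, 3 were in the table, none of them listed for subcluster 8, where 9.62% of the genes of the table were listed. The receptor genes *Ifnar1*, *Ifnar2* and *Ifngr1* were listed for subcluster 5 with lower shares inside, and *Ifnar1* for subcluster 1 at 60.5% against 41.2%. Of 34 other interferon-stimulated genes, 18 were in the table and 17 were listed for subcluster 8, where 9.62% of the genes of the table were listed. *Zbp1*, a sensor of nucleic acids, was at 51.7% against 19.5%, *Isg15*, a ubiquitin-like protein, at 28.1% against 7.80%, and *Parp14* at 57.3% against 29.5%. The next highest count was 5 of the 18, in subcluster 1, where 13.8% of the genes of the table were listed. All 5 had the higher share inside. Neither feedback inhibitor gene of the table was listed for subcluster 8. *Socs3* was listed for subcluster 7, and *Socs1* for subclusters 7 (50.5% against 31.8%), 0 (35.9% against 30.6%) and, with the lower share inside, 5 (15.3% against 32.7%).

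**Figure D4:**
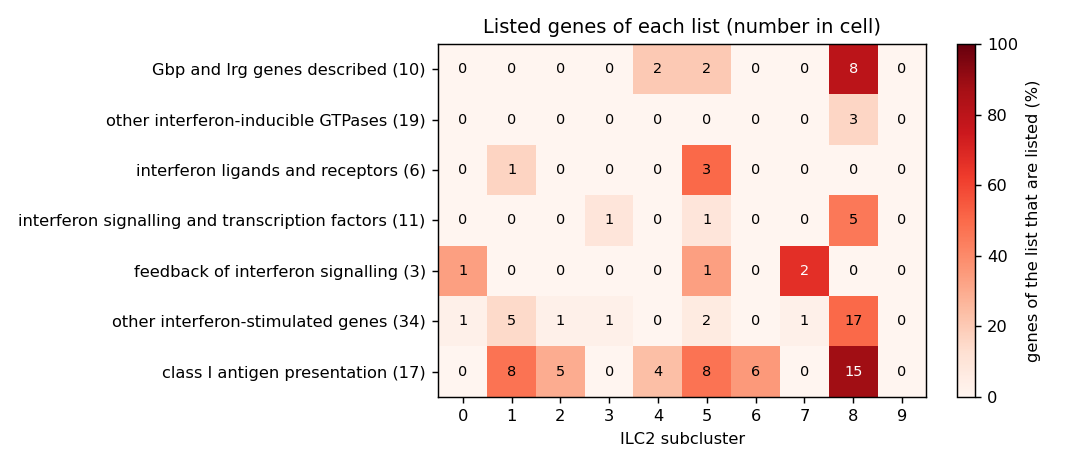
Number of genes of each list that were listed for each ILC2 subcluster, with the size of the list in parentheses and the color giving the percentage of the list. Subcluster 8 holds 8 of the 10 Gbp and Irg genes described, 17 of 34 other interferon-stimulated genes and 15 of 17 genes of class I antigen presentation, and subcluster 9 holds none.

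Markers of the cells themselves were read beside these values. Of 12 ILC2 markers, 11 were in the table, and subcluster 8 listed 3, where 9.62% of the genes of the table were listed. These were *Il13* (69.7% against 36.8%), *Areg* (57.3% against 39.5%) and *Klrg1* (85.4% against 68.8%), each also listed for other subclusters. Subcluster 8 listed none of 10 T cell markers, of which 5 were in the table, and none of 7 B lineage markers, of which 1 was. Before this clustering the authors left out cells with markers of other types, such as *Cd3* and *Cd45r*. The lack of these listings was thus partly set in advance, and few of these markers were in the table. No marker of NK cells and ILC1s, myeloid cells or basophils was listed for any subcluster, so the table does not bear on those cells. Of 8 proliferation markers subcluster 8 listed *Top2a* (49.4% against 30.2%), and of 4 endothelial markers *Pecam1* (49.4% against 27.1%). The part of either in the higher shares of the Gbp and Irg genes was not tested.

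The subclusters that listed at least 2 of the genes, 4, 5 and 8, were compared with the listings of every other gene by the Jaccard index over the 10 subclusters. The index ignores direction, and of the Gbp and Irg genes *Ifi47* alone was listed for all 3, so a high index does not show likeness to the others. The highest were *Hspa5*, an endoplasmic reticulum chaperone, with an index of 1, *Gimap4* with 0.75 and *Ppa1* with 0.667. *Hspa5* was the only gene outside the family listed for exactly these 3 subclusters, at 98.9% against 87.4% in subcluster 8.

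The cell type table compared each of 21 named types among all sorted cells with all other cells. It held 6 of the 10 genes, in 20 listings over 9 types. The type named ILC2, 43.2% ± 0.0133 of the cells, listed none of them, where 8.10% of the genes of the table were listed, and it listed 9 of the 12 ILC2 markers, *Il1rl1*, *Gata3* and *Il13* among them. The 12 types without a listing of these genes held 66.6% of the cells, and among them were Macrophage, NK, Basophil and the type spelled Prolifelation cell. Of the genes of the table, 17.3% were listed for Macrophage, 11.7% for NK, 16.4% for Basophil and 30.6% for Prolifelation cell. With only 6 of the 10 genes in the table, a type without a listing was not shown to lack a difference in their shares. The shares here are not on the scale of the subcluster table. Of 820 genes in both tables, 92.8% had a higher share among all sorted cells, with a median of 56.8% against 35.2% of ILC2s, and for the 5 shared Gbp and Irg genes the medians were 49.7% and 10.6%. *Cd3e*, whose protein the gate selected against, was found in 83.1% of cells outside CD4 in this table. Which values in Seurat, raw or integrated across libraries, the shares were taken from is not given in the sources used here, and the tables were therefore not compared gene by gene.

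In 13 of the 20 listings the share was lower inside the type than outside, against 16.3% of all 4422 listings of this table. Of these 13, 4 were in gdT_Naive and 2 in CD4, types in which 74.5% and 76.3% of all listings had a lower share inside. A further 2 each were in ILC2_2 and gdT_TypeI, where that held for 53.0% and 27.6%. The other 3 were in Treg, ILC3 and ILC1, where it held for 51.3%, 11.1% and 7.59%. A listing in this table therefore did not mean that more cells had the gene.

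The widest gains in share were those of *Gbp6* and *Gbp3*. *Gbp6* was found in 58.9% of gdT_TypeIII_ITGAE cells against 41.1% of other cells, a difference of 17.8 percentage points, where the median over the listings of this type was 13.2. That type listed 1 of the genes, where 11.7% of the genes of the table were listed. *Gbp3* was found in 50.1% of Treg cells against 33.8%, a difference of 16.3 percentage points, where the median over the type was -0.40. Treg listed 4 of the genes, where 8.93% of the table were listed. The others there were *Iigp1* (chromosome 18, 60376027 to 60392634, plus strand; 37.3% against 35.2%), *Igtp* (50.7% against 49.7%) and *Gbp2*, which had the lower share inside (39.0% against 57.2%).

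*Gbp4* had the most listings together with *Igtp*, 5 each. It was found in 72.5% of the type named Endothelium cell against 65.9% of other cells, and *Iigp1* in 39.0% against 35.3%. Endothelium cell listed these 2 genes, where 23.6% of the table were listed, and also *Gbp2b* (89.2% against 49.3%). In ILC3, where 9.11% of the table were listed, *Gbp6* was at 45.1% against 41.3% and *Gbp4* at 61.1% against 66.0%. In ILC1, where 8.64% were listed, *Gbp4* was at 65.0% against 66.0%, a difference of 1 percentage point.

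Lower shares were also listed in CD4, gdT_Naive, ILC2_2 and gdT_TypeI cells. *Gbp2* was found in 27.0% of CD4 cells against 57.8% of other cells, and *Igtp* in 35.1% against 50.2%; 7.80% of the table were listed for CD4. The type gdT_Naive listed *Gbp2* (32.9% against 58.4%), *Gbp6* (24.9% against 42.4%), *Igtp* (35.8% against 50.6%) and *Iigp1* (24.9% against 36.0%), where 8.87% were listed. In ILC2_2, where 11.9% were listed, *Gbp4* was at 41.3% against 66.4% and *Igtp* at 37.8% against 49.9%. In gdT_TypeI, where 8.64% were listed, *Gbp4* was at 60.1% against 66.7% and *Igtp* at 44.7% against 50.3%.

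**Figure D5:**
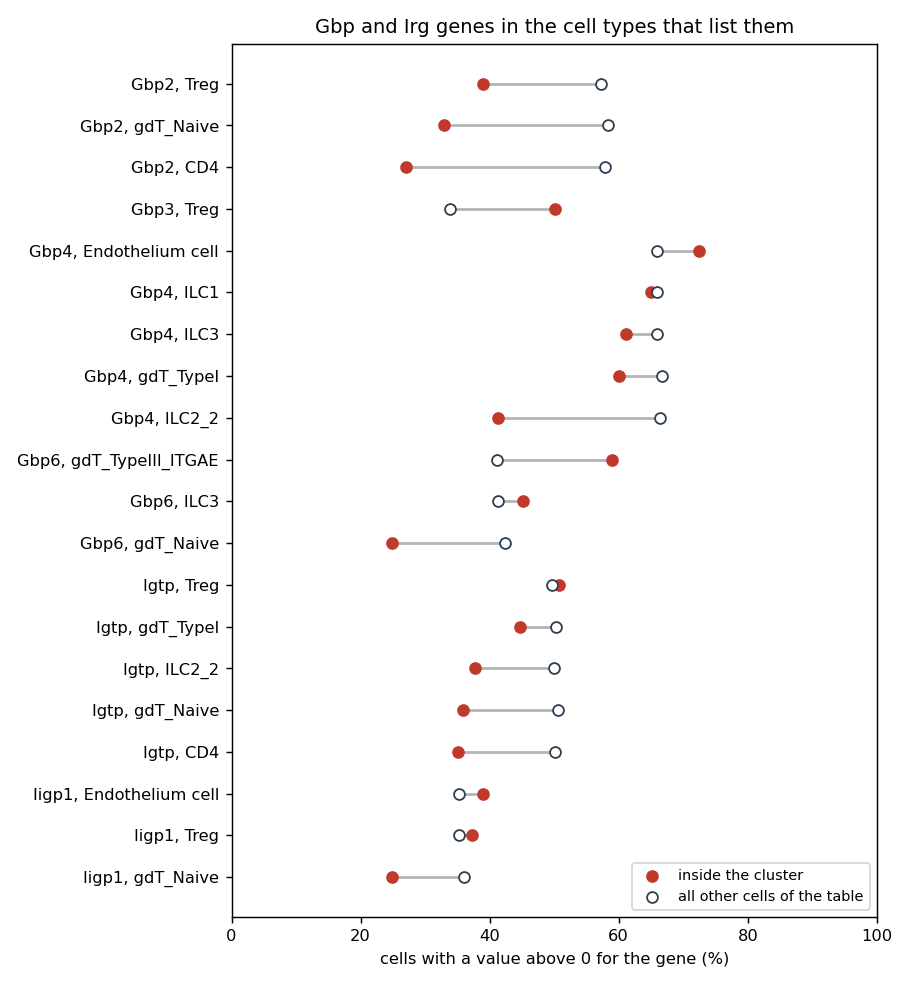
Percentage of cells with a value above 0 for each gene inside the cell type that lists it (filled red) and in all other sorted cells (open), 1 line for each of the 20 listings. In 13 listings the filled point lies to the left of the open one, and the widest gains are *Gbp6* in gdT_TypeIII_ITGAE and *Gbp3* in Treg.

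In the types that did not list them, the pooled share was 67.4% for *Gbp4*, 59.9% for *Gbp2*, 52.4% for *Igtp*, 42.1% for *Gbp6*, 35.9% for *Iigp1* and 33.8% for *Gbp3*. The order among all sorted cells was the same, from 65.9% for *Gbp4* over 56.8% for *Gbp2*, 49.7% for *Igtp*, 41.3% for *Gbp6* and 35.3% for *Iigp1* to 34.1% for *Gbp3*. Of the pathway, *Ifng*, which encodes interferon gamma, was listed for NK (63.6% against 58.2%), ILC1 (64.4% against 58.1%) and gdT_TypeI (59.2% against 58.3%), and for CD8_Effector with the lower share inside (46.8% against 58.5%).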

How the data were processed

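Single-cell RNA sequencing libraries of transcript 3' ends were made from 4 groups, with 1 library each. The authors aligned reads with Cell Ranger to mm10, left out cells with fewer than 500 genes, removed doublets and dead cells by flow cytometry, scaled and log transformed the counts, clustered cells and ran FindAllMarkers in Seurat. The methods name no computational search for doublets. The deposited tables give, for each gene and cluster, the fraction of cells whose value is above 0, within the cluster and over the remaining cells, rounded to 3 decimals and written here as percentages. The authors' columns of fold changes and p-values were not used. The tables held 0 further columns of values per sample. The tables give neither depth nor numbers of cells, and no interval for counting was computed.

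Sizes of clusters were solved by least squares (NumPy 2.4.6, pandas 2.3.3) over all genes listed for at least 2 clusters, since the share outside plus the size times the difference of both shares is the same for every cluster of a gene. The fit used 768 genes for the subclusters and 1045 for the cell types, the sizes summed to 100.2% and 100.1%, and the solver was tested on simulated data. All 10 genes were named, together with the list genes of subcluster 8 and the 3 genes with the highest Jaccard index of listings. Genes and lists were chosen with earlier results of these data known. Stretches of 89 bases, the length of the transcript read, were searched in all GENCODE M21 transcripts to find shared reads, and promoter windows were aligned with Biopython 1.88. Some results on other genes of the pathway are not reported here. Alternatives were filters on the shares and other ways to solve the sizes.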

Additional observations from a re-analysis of the deposited data

How the results depend on the processing

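The listings of the cell type table depended on what counts as a gain in share. Of 20 listings, 3 had a share inside that was at least 5 percentage points above that outside, 2 had at least 10 percentage points, and 0 reached 1.5 times the share outside. Of the 12 listings of the ILC2 subcluster table, 10 remained under each of these 3 filters, and all 8 of subcluster 8 were among them. With sizes solved from genes listed for at least 3 clusters, without the Gbp and Irg genes, or scaled to a sum of 100%, 60 solved shares and parts were recomputed; 179 of 180 values moved by less than 0.1 percentage points. The exception was the part of the ILC2s with *Gbp6* in subcluster 8, which was 7.12% with sizes from genes listed for at least 3 clusters, against 7.22% in the report. Each group had 1 library and the values pool them, so no library could be left out. No paired analysis was possible because the tables give no value per library.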

Other observations

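Genes of class I antigen presentation, many of which interferon gamma also raises, were listed for subcluster 8 and for several others. Of 17 such genes, 16 were in the ILC2 subcluster table. Subcluster 8 listed 15 of them, where 9.62% of the genes of the table were listed, subcluster 1 listed 8 (13.8% of the table), subcluster 6 listed 6 (7.23%) and subcluster 2 listed 5 (4.98%), all with the higher share inside. Subcluster 4 listed 4, also with the higher share inside, a smaller part of the list than the 30.5% of the table listed there. Subcluster 5 listed 8, all with the lower share inside, where 38.0% of the table were listed. The peptide transporter gene *Tap1* was found in 76.4% of subcluster 8 and 41.2% of the remaining ILC2s, *Tapbpl* in 58.4% against 27.7%, and the immunoproteasome gene *Psmb9* in 95.5% against 64.3%. *H2-K1* and *H2-D1*, which encode classical class I heavy chains, were found in nearly all cells on both sides, at 98.6% and 99.8% outside subcluster 8, so their shares leave little room for a difference. Subclusters 1, 2 and 6 listed class I genes and none of the 10 Gbp and Irg genes, and the difference between both groups of genes was not tested.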
